A study of Mus musculus with 6 samples.

Results

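The genes described here are 35 genes of granulocytes and monocytes, chosen by symbol and sorted by what their products do. They comprise 4 primary granule genes, 4 secondary granule genes, 10 genes for other granulocyte and monocyte products, 4 cytokine receptor genes, 7 surface protein genes and 6 transcription factor genes. All 35 symbols were found among the 23955 in the deposited table. RNA had been sequenced from haematopoietic stem cells (HSCs) of C57BL/6 mice aged 4 months, either db/db, which are obese because both copies of the leptin receptor gene carry the db mutation, or wild-type (WT) littermates. HSCs were sorted from marrow as lineage-negative Sca-1+ c-Kit+ (LSK) cells carrying CD150 and lacking CD48, at 20000 cells per library, and the lineage antibodies included Mac1 and Gr-1, which mark granulocytes and monocytes. Each of 3 experiments contributed a pair of libraries, 1 of each genotype, which makes 3 per genotype, and the replicate number is the experiment number. The labels do not say how many mice stand behind a library.

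Neutrophils fill their granules in a fixed order. Primary (azurophil) granules are loaded at the promyelocyte stage with myeloperoxidase and serine proteases, and secondary (specific) granules are loaded later, at the myelocyte stage, with lactoferrin, lipocalin and cathelicidin. PU.1 and C/EBP alpha act early in this series, C/EBP epsilon drives the secondary granule stage, and the receptors for GM-CSF, G-CSF and M-CSF carry the signals that sustain granulocytes and monocytes. HSCs are known to hold low levels of some of these transcripts.

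Values are TPM, a transcript abundance corrected for length and library total, so levels may be compared between genes. Sequencing depth cannot be read from TPM, and the error given is the spread between libraries. Between 13314 and 13810 symbols were above 0 in a library. The stem cell genes Slamf1 (CD150), Kit, Ly6a (Sca-1), Procr, Mecom and Hlf were above 0 in all 6 libraries, with Hlf between 169 and 348 TPM, and Il7r of lymphoid progenitors was listed at 0 in all 6. Cd48, whose product the gate excludes, was at 1.09 to 5.35 TPM in WT and at 9.10, 21.4 and 1.63 TPM in db/db replicates 1, 2 and 3. Flt3, a receptor gene of multipotent progenitors outside the gate, was at 8.62, 6.18 and 12.7 TPM in WT and 18.4, 29.6 and 21.3 TPM in db/db, without overlap (limma adjusted p = 0.588), and its part in the results below was not tested. Lepr was at 2.34 to 2.93 TPM in WT and 1.51 to 2.44 TPM in db/db, and the db mutation alters splicing, so this total does not check the genotype. WT replicate 1 stood apart from the other WT libraries in many of the genes below, and for those genes values without it are also given.

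The genes together took 0.580%, 0.153% and 0.149% of all TPM in WT replicates 1, 2 and 3, and 0.538%, 0.364% and 0.283% in db/db replicates 1, 2 and 3. The neutrophil calcium-binding protein genes S100a8 and S100a9 made up 60.9% of that sum in WT replicate 1 but 9.44% and 13.1% in WT replicates 2 and 3, and 52.2%, 28.7% and 34.6% in db/db. Of the 35 genes, 27 were above 0 in every library. In bulk RNA a few cells with much of a transcript and many cells with little of it cannot be told apart, and this holds for every gene below.

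**Figure D1:**
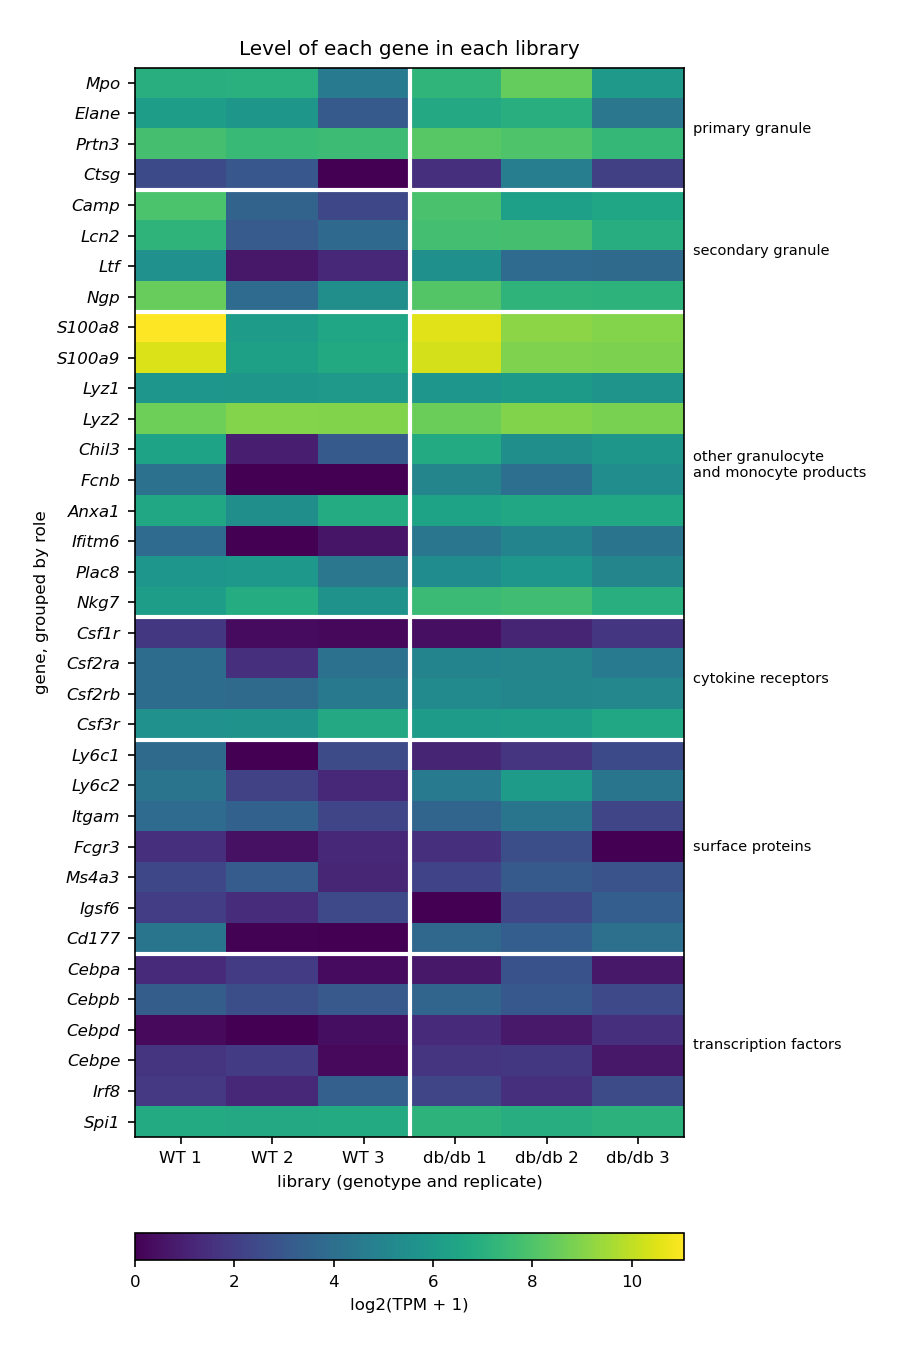
Level of each of the 35 genes, as log2(TPM + 1), with 1 column per library (WT and db/db replicates 1 to 3) and rows grouped by role. The secondary granule genes and S100a8 and S100a9 are brighter (higher) in WT replicate 1 and in all db/db libraries than in WT replicates 2 and 3, whereas Lyz2 and Spi1 are even across the 6 columns.

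The genotypes were compared with limma on log2(TPM + 1), with Benjamini-Hochberg adjustment over the 11931 symbols that had a mean of at least 1 TPM, and the threshold was an adjusted p under 0.05. The filter kept 34 of the 35 genes and left out Cebpd. None of the 34 passed in either direction, with adjusted p from 0.155 to 0.997, where 0.0335% of all genes tested passed as higher. At an unadjusted p under 0.05, 14 of the 34 were higher in db/db and 0 lower, against 4.1% of all genes tested as higher and 1.25% as lower. These 14 were all 4 secondary granule genes, 6 of the 10 other products, 2 of the 4 receptors and 2 of the 7 surface proteins, and neither the primary granule genes nor the transcription factors contributed. The median log2 fold change was 0.70 over the 34 genes and 0.18 over all genes tested, a shift that median-of-ratios scaling brought to 0.00. Under that scaling 9 of the 34 were higher at an unadjusted p under 0.05.

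Primary granule genes ranged widely in level, and their sum was lowest in experiment 3 in both genotypes. Summed over the 4 genes, the level in WT replicates 1, 2 and 3 was 421, 370 and 219 TPM, and in db/db 545, 755 and 249 TPM, so each db/db library lay above the WT library of its experiment, by 1.29, 2.04 and 1.14 times, while the groups overlapped. Mpo, which encodes the myeloperoxidase that makes hypochlorous acid, was at 125, 127 and 21.9 TPM in WT and at 149, 347 and 60.4 TPM in db/db. Both libraries of experiment 3 lay below every other library for Mpo. Over all libraries Mpo differed by 1.04 on the log2 scale (SE 0.54, limma adjusted p = 0.919), and with the experiment as a replicate block, which compares within experiments, the adjusted p was 0.375. Elane, the neutrophil elastase gene, was also lowest in both libraries of experiment 3, at 69.4, 56.0 and 7.83 TPM in WT and 102, 123 and 19.7 TPM in db/db. Within experiments its log2 difference was 0.55, 1.12 and 1.23, always above the median of all genes in that experiment, which was 0.00, 0.45 and 0.09, and the blocked adjusted p was 0.428 in limma. Ctsg, the cathepsin G gene, was the lowest of the 4 at 4.65, 6.98 and 0 TPM in WT and 1.85, 25.2 and 3.25 TPM in db/db, and its difference was negative in experiment 1.

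Prtn3, the proteinase 3 gene, was lowest in experiment 3 among db/db libraries but not among WT libraries. It was at 222, 181 and 189 TPM in WT and 292, 260 and 165 TPM in db/db, with means of 197 ± 22.02 and 239 ± 65.9 TPM (SD, n = 3 each), and its log2 fold change was 0.24 (SE 0.26, limma adjusted p = 0.923). Thus within one granule class the level of Mpo and Elane differed several times between experiments while Prtn3 stayed within a narrower band. The median log2 fold change of the 4 genes was 0.95, which dropped to 0.12 when WT replicate 3 was left out and to 0.29 when db/db replicate 2 was.

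The promoters of the 4 primary granule genes are shown because 3 of them hold the same short match. Each line gives the 250 bases before the annotated start from RefSeq on build GRCm38.p6, matched by symbol, read 5′ to 3′ on the strand of the gene. Capitals mark matches, on either strand, to the C/EBP motif TTGCNNAA, the PU.1 motif GAGGAAGT, the Runx motif TGTGGT or the Gfi1 motif AAATCAC, and no match shown overlapped another.
Mpo (chr11:87793534-87793783, plus strand): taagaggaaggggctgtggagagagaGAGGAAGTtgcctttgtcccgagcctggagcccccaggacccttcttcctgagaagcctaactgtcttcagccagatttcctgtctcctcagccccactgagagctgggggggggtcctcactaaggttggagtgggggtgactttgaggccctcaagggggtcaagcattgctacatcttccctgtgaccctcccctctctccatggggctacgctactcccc
Elane (chr10:79886062-79886311, plus strand): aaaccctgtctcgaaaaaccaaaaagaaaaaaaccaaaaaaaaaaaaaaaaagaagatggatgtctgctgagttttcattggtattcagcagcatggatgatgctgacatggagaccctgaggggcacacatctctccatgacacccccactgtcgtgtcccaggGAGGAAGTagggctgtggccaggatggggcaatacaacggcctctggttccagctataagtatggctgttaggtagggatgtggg
Prtn3 (chr10:79879417-79879666, plus strand): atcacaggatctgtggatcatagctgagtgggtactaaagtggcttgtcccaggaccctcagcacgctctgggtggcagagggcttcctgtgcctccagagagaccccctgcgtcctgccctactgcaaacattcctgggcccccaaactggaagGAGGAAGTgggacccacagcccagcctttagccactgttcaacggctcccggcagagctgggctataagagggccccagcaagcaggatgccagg
Ctsg (chr14:56102575-56102824, minus strand): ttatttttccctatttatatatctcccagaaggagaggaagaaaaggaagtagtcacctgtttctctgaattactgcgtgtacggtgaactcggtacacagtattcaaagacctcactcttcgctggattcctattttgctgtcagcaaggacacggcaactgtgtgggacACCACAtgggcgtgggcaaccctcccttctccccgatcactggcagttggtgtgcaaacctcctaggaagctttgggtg
The capitals in Mpo, Elane and Prtn3 are GAGGAAGT, beginning at -224, -85 and -95 from the start, and those in Ctsg are the reverse complement of TGTGGT at -79. Over the 27025 genes with a promoter in the table, 2.79% held GAGGAAGT in this window and 15.9% held TGTGGT. None of these 4 windows held TTGCNNAA, which 10.8% of all genes did. A match describes letters only.

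Secondary granule genes showed a different layout, with WT replicates 2 and 3 low and the other 4 libraries high. Their summed level in WT replicates 1, 2 and 3 was 796, 32.9 and 61.3 TPM, against 775, 455 and 363 TPM in db/db. WT replicate 1 was thus 12.99 times the higher of the other WT libraries and slightly above the highest db/db library. In experiment 1 the db/db to WT ratio was 0.973, and in experiments 2 and 3 it was 13.8 and 5.92. The ratio of secondary to primary summed TPM in WT was 1.89, 0.0889 and 0.280, against 1.42, 0.603 and 1.46 in db/db, so only WT replicates 2 and 3 and db/db replicate 2 held less secondary than primary transcript.

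Lcn2, which encodes the iron-siderophore binding lipocalin-2, was at 143, 8.10 and 12.8 TPM in WT and 217, 221 and 116 TPM in db/db. Within every experiment the db/db library was the higher, by 0.60, 4.61 and 3.08 on the log2 scale, though WT replicate 1 exceeded db/db replicate 3. Its log2 fold change over all libraries was 2.76 (SE 0.61, limma adjusted p = 0.183), and it passed without WT replicate 1 (3.99, adjusted p = 7.98e-08) and without db/db replicate 3 (3.07, adjusted p = 0.0113). WT replicate 1 was the highest WT library for Lcn2, so the first of these rises follows by construction. Camp, the cathelicidin gene, was at 243, 10.4 and 4.22 TPM in WT and 235, 75.3 and 93.3 TPM in db/db. Ltf, the gene of the iron-binding protein lactoferrin, was at 47.5, 0.62 and 1.36 TPM in WT and 46.3, 13.7 and 13.1 TPM in db/db. Ngp, a cathelicidin-related granule protein gene, was at 363, 13.8 and 42.9 TPM in WT and 277, 145 and 141 TPM in db/db. For Camp, Ltf and Ngp the 2 libraries of experiment 1 were the 2 highest of the 6, and in that experiment db/db was below WT by -0.05, -0.04 and -0.39. In experiments 2 and 3 the differences of these 3 genes ran from 1.69 to 4.17.

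The median log2 fold change of the 4 secondary granule genes was 2.10 over all libraries, 3.70 without WT replicate 1 and 3.17 in experiments 2 and 3 alone. It was 1.37 and 1.28 without WT replicates 2 and 3, 1.56 without db/db replicate 1, and 0.40 with array weights, which let limma weigh libraries unequally. Over all libraries 0 of the 4 passed in limma, and all 4 were at an unadjusted p under 0.05, from 0.000177 for Lcn2 to 0.0288 for Ltf. Without WT replicate 1 all 4 passed, with log2 fold changes of 3.95, 3.45 and 2.81 for Camp, Ltf and Ngp. WT replicate 1 was the highest WT library for all 4, so leaving it out raises their difference by construction. All 4 also passed in experiments 2 and 3 alone, which also leave out that library. Single-gene exact two-sided permutation tests gave p = 0.2 for Lcn2 and 0.4 for Camp, Ltf and Ngp, where 0.1 is the smallest value for 3 against 3 libraries. These tests did not use the pairing by experiment.

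**Figure D2:**
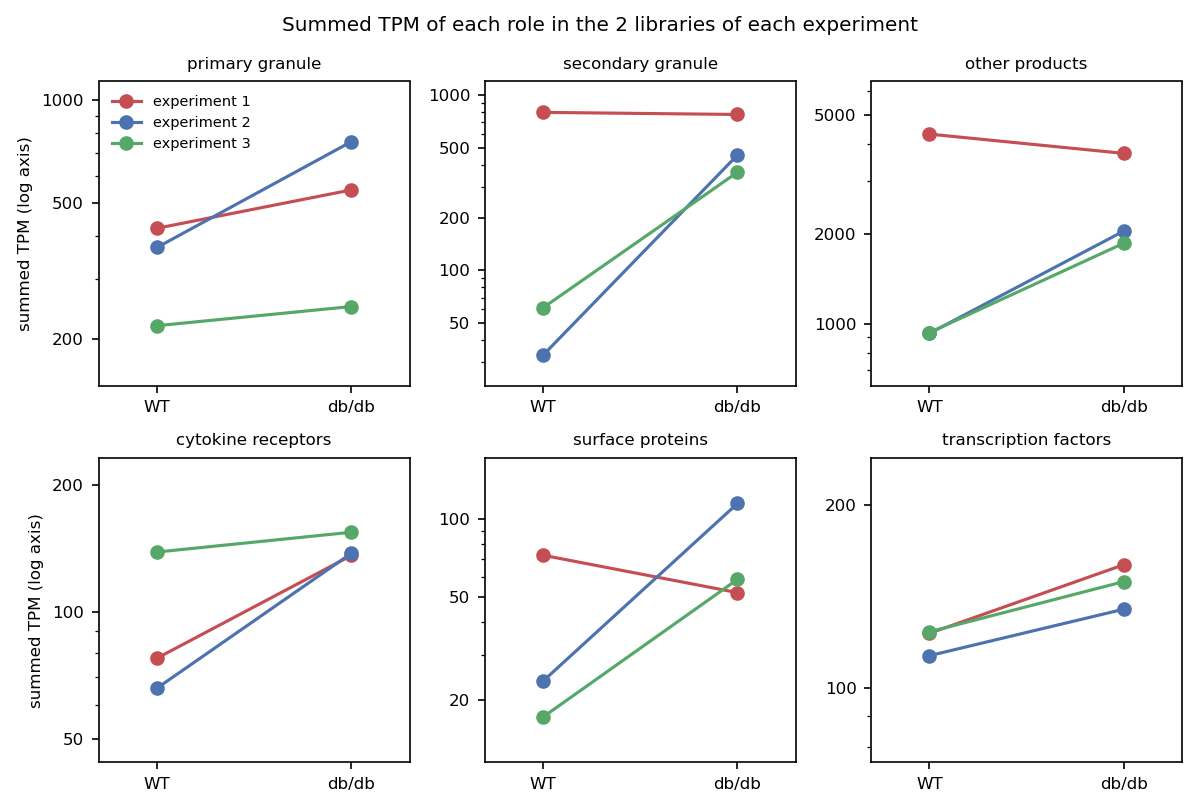
Summed TPM of the genes of each role, on a log axis, with a scale of its own in each panel and a line joining the WT and db/db library of each experiment. In the secondary granule panel experiment 1 is flat at 796 and 775 TPM while experiments 2 and 3 climb from 32.9 and 61.3 to 455 and 363 TPM, and in the transcription factor panel the 3 lines are nearly parallel.

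The promoters of the secondary granule genes are shown for comparison with the primary ones, with the same window, build and capitals.
Camp (chr9:109849457-109849706, minus strand): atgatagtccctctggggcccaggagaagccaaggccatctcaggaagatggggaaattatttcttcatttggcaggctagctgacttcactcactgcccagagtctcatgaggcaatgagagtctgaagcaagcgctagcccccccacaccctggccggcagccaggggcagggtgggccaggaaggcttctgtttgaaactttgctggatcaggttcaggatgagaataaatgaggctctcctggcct
Lcn2 (chr2:32387740-32387989, minus strand): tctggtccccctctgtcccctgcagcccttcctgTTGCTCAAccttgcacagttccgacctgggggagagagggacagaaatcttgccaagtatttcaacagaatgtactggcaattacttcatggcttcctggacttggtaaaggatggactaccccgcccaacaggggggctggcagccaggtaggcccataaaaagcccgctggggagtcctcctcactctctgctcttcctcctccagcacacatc
Ltf (chr9:111019042-111019291, plus strand): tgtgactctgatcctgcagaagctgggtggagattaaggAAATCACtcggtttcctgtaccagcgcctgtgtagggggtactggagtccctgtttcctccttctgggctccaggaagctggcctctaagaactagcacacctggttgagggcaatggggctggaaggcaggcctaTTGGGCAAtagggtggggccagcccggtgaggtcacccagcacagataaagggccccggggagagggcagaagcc
Ngp (chr9:110419558-110419807, plus strand): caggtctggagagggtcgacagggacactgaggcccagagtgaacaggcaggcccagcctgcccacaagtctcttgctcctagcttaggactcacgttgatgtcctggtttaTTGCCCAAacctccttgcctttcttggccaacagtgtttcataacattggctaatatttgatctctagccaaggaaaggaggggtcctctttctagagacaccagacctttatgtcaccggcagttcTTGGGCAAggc
Here the capitals in Lcn2, in Ngp and near the start of Ltf are matches to TTGCNNAA or its reverse complement, at -216 in Lcn2, at -75 in Ltf and at -138 and -11 in Ngp. Ltf also holds AAATCAC at -211, which 3.13% of all genes held. Camp has no match. None of the 4 windows holds GAGGAAGT, so in these letters the 2 granule classes did not share a motif, with TTGCNNAA in 3 of 4 secondary and 0 of 4 primary windows and GAGGAAGT in 0 and 3. Promoter windows of 30 of the 35 genes were used, and over these 30 the motif TTGCNNAA was in 9 and GAGGAAGT in 6. Windows of Csf1r, Csf2rb, Cebpd, Cebpe and Spi1 were not used. A chromosome left out for the 35 genes was kept in the shares over all genes.

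Among the other granulocyte and monocyte products, one set followed the secondary granule genes, the lysozyme genes were level, and Nkg7, Anxa1 and Plac8 did neither. S100a8 had the highest mean level of the 35 genes, at 2127, 67.8 and 90.5 TPM in WT and 1528, 559 and 512 TPM in db/db, and its partner S100a9 was at 1403, 77.0 and 104 TPM in WT and 1284, 485 and 467 TPM in db/db. The 2 proteins form calprotectin, which binds calcium and zinc in the neutrophil cytosol. The ratio of S100a8 to S100a9 was 1.52 in WT replicate 1, 0.880 and 0.867 in WT replicates 2 and 3, and 1.10 to 1.19 in db/db. The log2 fold changes were 1.68 (SE 0.75) and 1.55 (SE 0.64), and neither passed over all libraries (limma adjusted p = 0.910 and 0.898). Without WT replicate 1 both passed, with log2 fold changes of 3.26 and 2.87 (limma adjusted p = 4.64e-07 and 2.67e-06). That was the highest WT library for both genes, so the rise follows by construction.

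Chil3, a chitinase-like lectin gene, was at 83.2, 0.91 and 7.70 TPM in WT and 106, 45.0 and 57.0 TPM in db/db. Fcnb, the ficolin-B gene whose product recognises microbial sugars, was at 16.4, 0 and 0 TPM in WT and 31.9, 15.6 and 41.8 TPM in db/db. Ifitm6, a member of the interferon-induced transmembrane family, was at 13.4, 0 and 0.53 TPM in WT and 19.1, 30.6 and 18.2 TPM in db/db. Fcnb overlapped between groups through WT replicate 1 alone, while for Ifitm6 all 3 db/db libraries exceeded all 3 WT libraries. The 3 were higher in db/db in all 3 experiments, with the smallest difference in experiment 1 (0.35, 0.91 and 0.48 for Chil3, Fcnb and Ifitm6). Over all libraries Fcnb had the smallest adjusted p of the 34 genes (log2 fold change 3.46, SE 0.75, limma adjusted p = 0.155). Without WT replicate 1 the log2 fold changes of Chil3, Fcnb and Ifitm6 were 4.01, 4.84 and 4.22, and all 3 passed in limma. Here too the library left out was the highest WT library, which raises the difference by construction.

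Nkg7, which encodes a granule membrane protein best known from cytotoxic lymphocytes, differed from that set. It was at 69.8, 115 and 50.7 TPM in WT and 187, 200 and 125 TPM in db/db, so the groups did not overlap and WT replicate 1 lay between the other WT libraries. The difference was 1.41, 0.80 and 1.28 in experiments 1, 2 and 3, and the log2 fold change was 1.16 (SE 0.31, limma adjusted p = 0.351, and 0.181 with the replicate block).

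Lysozyme transcripts were level. Lyz2, the lysozyme gene of macrophages and neutrophils, was at 393, 509 and 491 TPM in WT and 380, 491 and 456 TPM in db/db, and Lyz1 was at 54.6 to 59.8 TPM in WT and 51.9 to 63.2 TPM in db/db. WT replicate 1, the library richest in S100a8, was the lowest WT library for Lyz2. Reads shared by these similar genes may be divided between them by RSEM, and added together they came to 521 ± 64.1 TPM (SD, n = 3) in WT against 499 ± 60.5 TPM (SD, n = 3) in db/db. The log2 fold change of Lyz2 was -0.07 with an SE of 0.23. Anxa1, the gene of the lipid-binding protein annexin A1, was at 94.4, 45.0 and 109 TPM in WT and 84.9 to 98.6 TPM in db/db, and Plac8, a small cysteine-rich protein gene, was at 19.9 to 57.9 TPM in WT and 31.5 to 54.5 TPM in db/db. Neither approached the threshold (limma adjusted p = 0.925 and 0.995). For the 10 products the median log2 fold change was 1.36 (1.995 without WT replicate 1 and 0.79 without WT replicate 2), with 7 above the median of all genes.

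Among the cytokine receptor genes, WT replicate 1 was not above both other WT libraries for Csf2ra, Csf2rb or Csf3r, but it was for Csf1r. Csf2rb, the signal-transducing beta chain shared by the receptors for GM-CSF, IL-3 and IL-5, was at 13.9, 13.03 and 21.1 TPM in WT and 36.6, 32.6 and 33.4 TPM in db/db. Csf2ra, the GM-CSF binding chain, was at 13.9, 1.78 and 17.1 TPM in WT and 30.6, 32.1 and 23.3 TPM in db/db. For both genes every db/db library exceeded every WT library. Their means were 16.0 ± 4.43 against 34.2 ± 2.12 TPM for Csf2rb and 10.9 ± 8.09 against 28.7 ± 4.71 TPM for Csf2ra (SD, n = 3 each), which are ratios of 2.13 and 2.62. The log2 fold changes of 1.08 (SE 0.35) and 1.69 (SE 0.52) did not pass in limma (adjusted p = 0.607 and 0.581). The exact two-sided permutation p, which did not use the pairing by experiment, was 0.1 for each, the smallest possible in that test. The lack of overlap fixes that value, so the test adds nothing to it, and 7.85% of all genes tested were higher without overlap. Csf2ra was lowest in WT replicate 2, and without that library its log2 fold change was 0.84.

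Csf2rb2 is a near-identical copy of Csf2rb, and the pair summed to 19.2, 16.6 and 46.9 TPM in WT and to 46.4, 48.1 and 51.4 TPM in db/db. With the copies added, WT replicate 3 lay within the db/db range, so the groups that were apart for Csf2rb alone overlapped in the sum. Csf3r, the G-CSF receptor, was the most abundant receptor gene, at 47.3, 50.8 and 100 TPM in WT and 68.3, 71.6 and 95.3 TPM in db/db. The 2 libraries of experiment 3 were the highest for it, and the log2 fold change was 0.31 (SE 0.32, limma adjusted p = 0.921). Csf1r, the M-CSF receptor of the monocyte line, was at 2.44, 0.26 and 0.18 TPM in WT and 0.37, 1.18 and 2.35 TPM in db/db. In TPM, Csf3r thus exceeded Csf1r in every library.

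Surface protein genes were mostly low. Ly6c2, whose product carries the Ly6C antigen of monocytes, was at 17.9, 3.43 and 1.32 TPM in WT and 21.97, 68.6 and 18.9 TPM in db/db, without overlap and with differences of 0.28, 3.97 and 3.10 in experiments 1, 2 and 3. Its log2 fold change was 2.45 (SE 0.59, limma adjusted p = 0.327), and it was 3.31 without WT replicate 1, its highest WT library (adjusted p = 0.000816). Ly6c1, a close copy, was at 12.95, 0 and 4.76 TPM in WT and 1.20, 2.14 and 4.67 TPM in db/db. Because the copies may share reads, their sum is also given, at 30.8, 3.43 and 6.08 TPM in WT and at 23.2, 70.8 and 23.6 TPM in db/db. In experiment 1 the sum was lower in db/db, and the groups overlapped, unlike Ly6c2 taken alone.

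Cd177, a neutrophil surface glycoprotein gene, was at 18.8, 0.06 and 0 TPM in WT and 12.2, 8.96 and 16.1 TPM in db/db. The log2 difference of 2.25 (SE 0.77, limma adjusted p = 0.723) became 3.67 without WT replicate 1, its highest WT library (adjusted p = 0.000816). Itgam encodes the alpha chain of Mac1, an antigen used to remove lineage cells in this sort. It was at 13.8, 9.87 and 4.00 TPM in WT and 11.2, 18.5 and 3.92 TPM in db/db, lowest in experiment 3 in both genotypes. Ms4a3, a gene of granulocyte and monocyte progenitors, was at 1.25 to 8.33 TPM in WT and 3.65 to 7.83 TPM in db/db. The Fc receptor gene Fcgr3 did not exceed 5.24 TPM and the immunoglobulin family gene Igsf6 did not exceed 8.88 TPM in any library, and each was listed at 0 in 1 db/db library. Over the 7 surface genes the median log2 fold change was 0.30, 0.12 above that of all genes, and it was 0.51 with WT replicate 1 left out and -0.26 with db/db replicate 2 left out.

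Transcription factor genes had the steadiest sum of any class, at 113 to 124 TPM in WT and 135 to 160 TPM in db/db. Nearly all of that sum was Spi1, which encodes PU.1, at 108, 101 and 106 TPM in WT and 140, 117 and 137 TPM in db/db. The sum thus says little about the other factors, which varied more between libraries. The groups did not overlap for Spi1, and db/db was higher by 0.37, 0.21 and 0.37 in experiments 1, 2 and 3. Its means were 105 ± 3.86 and 131 ± 12.8 TPM (SD, n = 3 each), with a log2 difference of 0.32 (SE 0.25, limma adjusted p = 0.920). In experiment 2 the difference was below the 0.45 by which the median gene differed, and with median-of-ratios scaling Spi1 had a log2 fold change of 0.12.

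Cebpa, the early granulocyte factor, was at 1.46, 2.86 and 0.27 TPM in WT and 0.64, 5.90 and 0.66 TPM in db/db, and Cebpe, the factor of the secondary granule stage, was at 2.24, 2.86 and 0.20 TPM in WT and 2.28, 2.45 and 0.64 TPM in db/db. Cebpe was lowest in both libraries of experiment 3, as Mpo and Elane were, and WT replicate 1 did not exceed WT replicate 2 for either factor. The library with the most Camp, Ltf and Ngp did not have the most Cebpe. No counting error is known for values of a few TPM, and a link between these genes was not tested. Cebpb, a factor of emergency granulopoiesis, was at 5.30 to 8.50 TPM in WT and 4.43 to 11.1 TPM in db/db, and Irf8, a factor of monocytes and dendritic cells, was at 1.45 to 9.45 TPM in WT and 1.92 to 4.84 TPM in db/db. Cebpd was under the filter with a mean of 0.777 TPM and was not tested, at 0.23, 0 and 0.34 TPM in WT and 1.49, 0.71 and 1.89 TPM in db/db. The median log2 fold change of the 5 tested factors was 0.10, below the 0.18 of all genes, and it was -0.04 after median-of-ratios scaling.

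**Figure D3:**
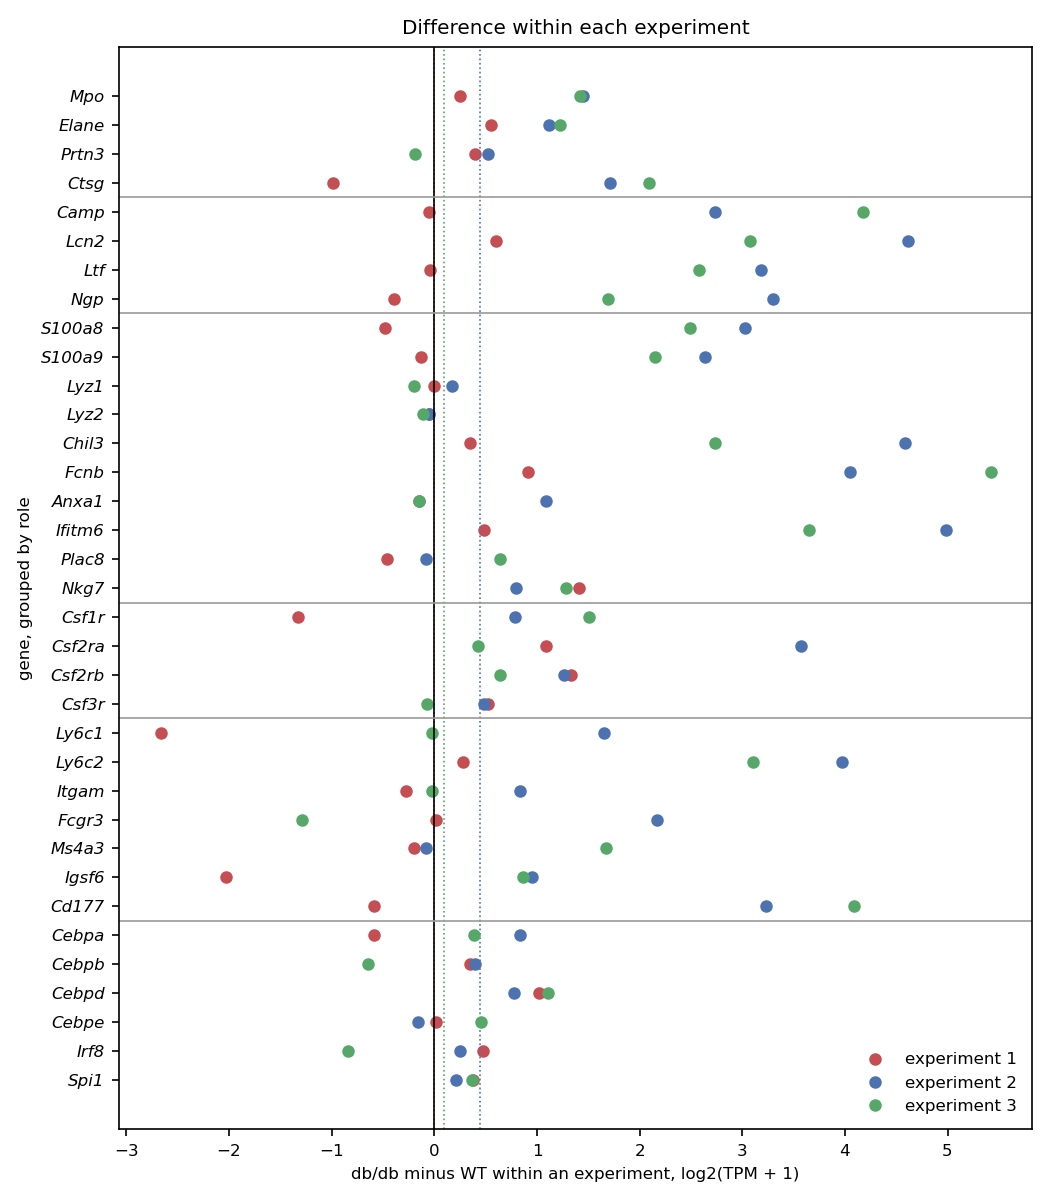
Difference between the db/db and the WT library of each experiment for the 35 genes, as log2(TPM + 1), with dotted lines at the median of all genes tested in each experiment. For the secondary granule genes, S100a8, S100a9, Chil3, Fcnb, Ifitm6, Ly6c2 and Cd177, experiment 1 lies between -0.59 and 0.91 and experiments 2 and 3 lie between 1.69 and 5.42.

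Across the classes, the 3 experiments fell into a pattern by gene. WT replicate 1 exceeded both other WT libraries by at least 2 on the log2(TPM + 1) scale for 11 of the 34 genes, against 0.444% of all genes tested, a measure set after the values were seen. These were Camp, Lcn2, Ltf, Ngp, S100a8, S100a9, Chil3, Fcnb, Ifitm6, Ly6c2 and Cd177, with excesses of 2.09 to 4.54. The 11 genes that passed in limma when WT replicate 1 was left out were the same 11, with log2 fold changes of 2.81 to 4.84 and adjusted p from 7.98e-08 to 0.00111, where 0.134% of all genes tested passed as higher. Leaving out a WT library in which a gene is high raises its difference by construction. With both libraries of experiment 1 left out, so that 2 experiments remained, these 11 passed again, against 0.193% of all genes tested. That fit also leaves out WT replicate 1 and uses the same WT replicates 2 and 3, so it is not a separate check. The other 23 genes did not pass in either case, and their adjusted p without WT replicate 1 was at least 0.357. With any other single library left out 0 of the 34 passed as higher, apart from 1 without db/db replicate 3. Whether the difference between experiments 2 and 3 and experiment 1 exceeds the spread was not tested, since each experiment holds 1 library per genotype.

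Of the 34 genes, 11 were higher in db/db in all 3 experiments, against 22.7% of all genes tested. They were Mpo, Elane, Lcn2, Chil3, Fcnb, Ifitm6, Nkg7, Csf2ra, Csf2rb, Ly6c2 and Spi1. Groups did not overlap, with db/db higher, for 6 of the 34, against 7.85% of all genes tested, and these were Ifitm6, Nkg7, Csf2ra, Csf2rb, Ly6c2 and Spi1. With the experiment as a replicate block, 16 of the 34 were higher at an unadjusted p under 0.05, against 5.41% of all genes tested, and 0 of the 34 passed after adjustment. The 16 comprised the 14 of the fit without a block, and Mpo and Elane.

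**Figure D4:**
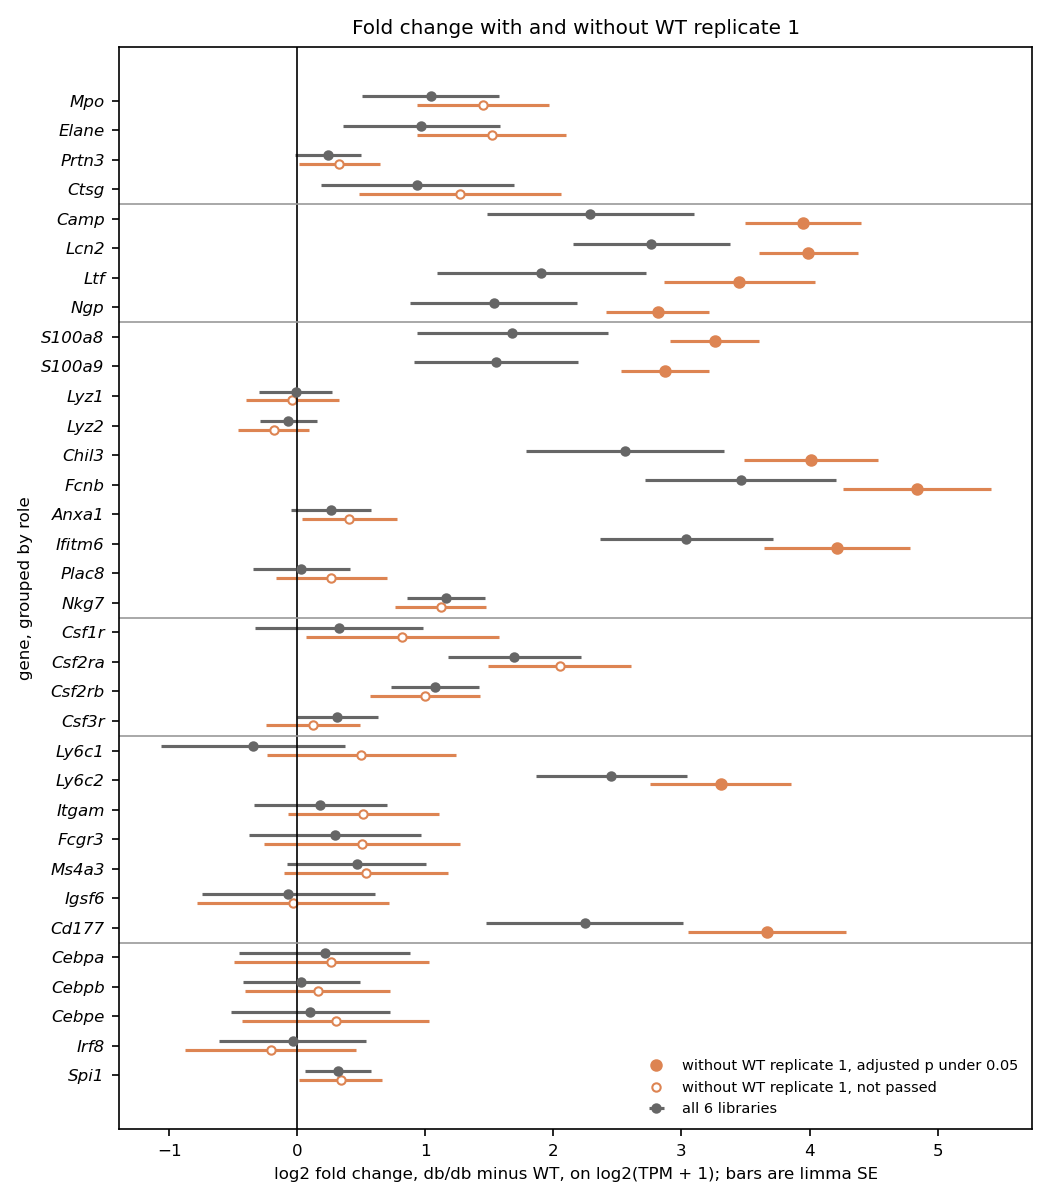
Log2 fold change of the 34 tested genes with its SE, over all 6 libraries (grey) and without WT replicate 1 (orange, filled where the adjusted p was under 0.05). The 11 filled points, genes for which WT replicate 1 was the highest WT library, move right of 2.8. Nkg7, Csf2rb, Spi1 and the lysozyme genes change little.

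Other genes of the same machinery were read from lists fixed by name, and 0 of their members passed over all genes in limma. Among 6 genes that process or inhibit granule proteases, 2 were higher at an unadjusted p under 0.05 and 0 lower, where 4.1% and 1.25% of all genes tested were. They were the granule proteoglycan gene Srgn, at 909, 615 and 1472 TPM in WT and 1131, 1656 and 1474 TPM in db/db, and the protease inhibitor gene Slpi, at 0, 2.90 and 0 TPM in WT and 3.40, 6.28 and 4.10 TPM in db/db. Of 6 NADPH oxidase genes, 1 was lower at an unadjusted p under 0.05, against 1.25% of all genes tested, and 0 higher. This was Cyba, the p22phox subunit, at 109, 64.9 and 87.3 TPM in WT and 39.9, 41.6 and 45.2 TPM in db/db, with no overlap (log2 fold change -0.999, limma adjusted p = 0.552).

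The list of gelatinase granule and mature neutrophil genes held 19 names, of which 18 were in the table and 10 passed the filter. Its 1 gene higher at an unadjusted p under 0.05, against 4.1% of all genes tested, was Pglyrp1, a peptidoglycan recognition protein gene, at 111, 62.9 and 91.6 TPM in WT and 221, 202 and 114 TPM in db/db. Genes of late neutrophils were uneven, with the collagenase gene Mmp8 at most 0.30 TPM, the gelatinase gene Mmp9 at most 1.29 TPM and the formyl peptide receptor gene Fpr1 at most 0.83 TPM. Mmp9 was above 0 in WT replicate 1 and in all db/db libraries and listed at 0 in WT replicates 2 and 3. The haptoglobin gene Hp was at 11.2, 1.57 and 0.91 TPM in WT and 7.01, 7.91 and 4.67 TPM in db/db, and Wfdc21 at 16.9, 0.91 and 1.42 TPM in WT and 5.99, 16.0 and 1.5 TPM in db/db, so WT replicate 1 exceeded the other WT libraries by 2.24 and 2.88 on the log2(TPM + 1) scale. The chemokine receptor gene Cxcr2 on the same list was at 10.6 to 17.5 TPM in WT and 10.9 to 16.8 TPM in db/db. Other genes of the list showed no excess in WT replicate 1. Retnlg was at 0 in all WT libraries and at 0, 5.16 and 1.96 TPM in db/db. Itgb2l was at 0.09, 0 and 0.09 TPM in WT and 0.46, 1.58 and 2.86 TPM in db/db, and Adam8 was at 0 in all WT libraries. Fpr2, Olfm4 and Lrg1 were above 0 in WT only in replicate 1, at 1.94, 0.6 and 0.93 TPM. Summed over the list, WT was at 203, 123 and 169 TPM and db/db at 307, 320 and 207 TPM. Of 9 monocyte and dendritic cell genes, 5 were tested and none was at an unadjusted p under 0.05, and the most abundant, the cathepsin gene Ctss, was at 11.9 to 22.7 TPM in WT and 12.6 to 18.9 TPM in db/db. For 1 of the 5, Mpeg1, WT replicate 1 exceeded both other WT libraries by at least 2 on the log2(TPM + 1) scale, against 0.444% of all genes tested. Mpeg1 was at 6.09, 0.66 and 0.32 TPM in WT and 1.09, 3.51 and 1.81 TPM in db/db. The ligand genes Csf2, Csf3, Il3 and Il6 were listed at 0 in all 6 libraries, whereas Csf1, which encodes M-CSF, was at 4.38 to 12.4 TPM. Il3ra, the IL-3 binding chain, was at 3.15 to 4.03 TPM in WT and 0.56 to 2.14 TPM in db/db, lower without overlap (limma adjusted p = 0.919). Mmp8, Mmp9, Fpr1, Cxcr2, Hp, Wfdc21, Retnlg, Itgb2l, Adam8, Fpr2, Olfm4, Lrg1, Mpeg1, Il3ra and these ligands were picked out after their values were seen.

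Of 9 tested further myeloid transcription factors, 1 was higher at an unadjusted p under 0.05, against 4.1% of all genes tested. This was Gfi1, the repressor named in the title of the series and needed for neutrophil formation, at 1.99, 3.88 and 4.75 TPM in WT and 11.8, 17.3 and 10.2 TPM in db/db. Gfi1 was lowest in WT replicate 1, where the secondary granule transcripts were highest, and every db/db library exceeded every WT library (limma adjusted p = 0.435). A link between Gfi1 and those transcripts was not tested. The most abundant factor on that list, Gata2, was at 158 to 244 TPM in WT and 227 to 257 TPM in db/db.

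Markers of other cell types were read beside these results. Macrophage markers were above 0 for 8 of 8 genes in WT replicate 1 and for 5 and 4 of 8 in WT replicates 2 and 3, against 8, 6 and 8 of 8 in db/db, with summed levels of 85.1, 24.8 and 49.1 TPM in WT and 108, 53.5 and 42.3 TPM in db/db. C1qb, which encodes a complement subunit made by macrophages, was at 23.0, 0.17 and 2.61 TPM in WT and 6.68, 4.24 and 5.07 TPM in db/db, so it was also highest in WT replicate 1. C1qc, of the same list, was at 3.66, 0.17 and 0.72 TPM in WT and 23.4, 1.07 and 2.3 TPM in db/db. Cd68, which made up most of each summed level, was at 45.0, 24.2 and 45.6 TPM in WT and 69.7, 36.6 and 31.5 TPM in db/db. C1qc and Cd68 were highest in db/db replicate 1. Vcam1, an adhesion molecule gene, was at 6.36, 0.15 and 0 TPM in WT and 4.92, 10.6 and 2.25 TPM in db/db (limma adjusted p = 0.899). It was lowest in WT replicates 2 and 3 as the 11 genes were, and so were C1qa, C1qb, C1qc and Mrc1. Adgre1 and Siglec1 were at 0 in both those libraries but also in db/db replicate 2, and Cd68 did not share this layout. C1qa, Mrc1 and Siglec1, like C1qb, were highest in WT replicate 1. The part of macrophages in the granule gene values was not tested. Mast cell and basophil markers summed to 0.670 to 2.93 TPM in WT and 5.01 to 15.5 TPM in db/db, nearly all of it the carboxypeptidase gene Cpa3, with Mcpt8, Ms4a2, Prss34 and Cma1 at 0 in all 6 libraries. Eosinophil markers summed to at most 6.34 TPM. The B cell genes Ebf1, Pax5 and Ms4a1 and the T and NK cell genes Cd3e, Cd3g, Ncr1 and Gzma were listed at 0 in all 6, whereas Cd79b was at 28.8 to 60.9 TPM and Klrb1c at 3.12 to 11.4 TPM. Megakaryocyte markers summed to 267 to 527 TPM in WT and 384 to 646 TPM in db/db, most of it Pf4, and stromal and endothelial markers to 20.2 to 38.9 TPM over the 6 libraries, most of it Pecam1. Erythroid markers, which summed to 69.7, 114 and 24.7 TPM in WT and 47.0, 303 and 56.7 TPM in db/db, were lowest in WT replicate 3 and highest in db/db replicate 2, the 2 libraries that were also lowest and highest for Mpo, and their part in the Mpo values was not tested.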

How the data were processed

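RNA of sorted HSCs was measured by bulk RNA-seq in 6 libraries. The authors deposited 1 table of TPM per gene symbol, made with RSEM and Bowtie2 on mm9, per the submitters' processing notes, with versions not given in the sources used here. TPM keep no depth, so precision rests on the spread between libraries. Library preparation was stranded with paired 75-nucleotide reads, per the labels' protocols.

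From the TPM, limma 3.58.1 (R 4.3.3) was fitted to log2(TPM + 1) for symbols averaging 1 TPM or more, using a trended prior, two-sided, adjusted by Benjamini-Hochberg over all symbols tested. The code was tested on simulated data. Alternatives changed the pseudocount, filter, scaling, prior, weights, replicate block and libraries. The labels give 1 WT and 1 db/db library the same experiment number, which pairs the libraries. Values are from the fit without a block unless the replicate block is named. After subtracting group means, the 2 libraries of an experiment correlated at 0.040, 0.0116 and 0.162, and libraries of different experiments at -0.117 to 0.0807. P-values measure the spread between these libraries. In limma the variance of each gene, which enters its SE and p, is drawn toward a trend over all genes. That prior had 17.74 degrees of freedom against 4 residual ones in the fit without a block. Small p-values thus rest largely on the prior. With a robust prior the unadjusted limma p of Lcn2 was 0.0861, against 0.000177.

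All 35 genes could be named. From each list of related genes, up to 3 genes of smallest unadjusted p under 0.05 and the gene of highest mean could be named, and always Gfi1 and Lepr. Other genes of those lists and the single cell type markers were picked out after their values were seen. The genes and lists were chosen with earlier results of these data known. Promoters came from RefSeq (GRCm38.p6), and no coordinates of the table's own build were used.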

Additional observations from a re-analysis of the deposited data

How the results depend on the processing

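Of the 34 genes tested, 19 kept their direction under all 18 alternatives, and for results that changed the cause was not tested. Depth is unknown, and no counting error is given for values of 0 or a few TPM.

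Counts of genes passing in limma over the whole table moved with the model. Genes called higher numbered 4 in all and were 0 with no filter on low values and with no trend, 1 with median-of-ratios scaling, quantile normalization or a robust prior, 12 with array weights and 23 in experiments 2 and 3 only. Genes called lower numbered 0, against 1 at a mean of at least 5 TPM, 4 with array weights and 3 in experiments 2 and 3 only. Of the 34 genes, 14 were higher at an unadjusted p under 0.05, against 8 with no filter, 9 with median-of-ratios scaling, quantile normalization or no trend, 6 with a robust prior and 7 with array weights. In experiments 2 and 3 only, 11 passed after adjustment.

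In the paired fit with the experiment as a replicate block, 2 genes were called lower over the whole table, and 1 with the replicate block and median-of-ratios scaling together. The replicate block changed no adjusted call among the 34 genes.

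The median log2 fold change of the cytokine receptors was 0.98 with a pseudocount of 0.1, 1.08 at a mean of at least 5 TPM and 1.05 in experiments 2 and 3 only. That of the surface proteins was 1.35 at a mean of at least 5 TPM, and with array weights that of the other products was 0.17, of secondary granule genes 0.40 and of primary granule genes 0.40. For the transcription factors it was 0.32 and 0.18 with pseudocounts of 0.1 and 0.5, 0.18 at a mean of at least 5 TPM, -0.040 with median-of-ratios scaling, with or without the replicate block, and -0.033 with quantile normalization.

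Some single genes near 0 changed direction. With median-of-ratios scaling, with or without the replicate block, Plac8 was at -0.16, Cebpb at -0.13 and Cebpe at -0.040. With quantile normalization Plac8 was at -0.14, Itgam at -0.029, Cebpb at -0.17 and Cebpe at -0.033. With array weights Lyz1 was at 0.021, Lyz2 at 0.076, Plac8 at -0.22, Csf1r at -0.0053, Itgam at -0.22, Igsf6 at 0.30, Cebpb at -0.19, Cebpe at -0.19 and Irf8 at 0.15. With a pseudocount of 0.1 Ly6c1 was at 0.38, Fcgr3 at -0.16 and Irf8 at 0.013. In experiments 2 and 3 only, Ly6c1 was at 0.81, Igsf6 at 0.91 and Cebpb at -0.13.

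With each library left out in turn, 3 to 16 genes over the whole table were called higher and 0 to 2 lower, 0 to 11 of the 34 genes passed, and 9 to 16 were higher at an unadjusted p under 0.05. The medians ran from 0.12 to 1.48 for primary granule genes, 1.28 to 3.70 for secondary granule genes, 0.79 to 1.995 for other products, -0.26 to 0.73 for surface proteins, 0.50 to 0.97 for receptors and -0.052 to 0.33 for transcription factors. Single genes that changed direction ran as follows: Ctsg -0.032 to 1.57, Lyz1 -0.094 to 0.046, Lyz2 -0.18 to 0.037, Anxa1 -0.12 to 0.51, Plac8 -0.46 to 0.29, Ly6c1 -1.40 to 0.50, Itgam -0.27 to 0.73, Fcgr3 -0.33 to 0.99, Ms4a3 -0.087 to 0.94, Igsf6 -0.78 to 0.87, Cebpa -0.47 to 0.59, Cebpb -0.25 to 0.33, Cebpe -0.42 to 0.45 and Irf8 -0.47 to 0.57.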
